A study of Drosophila melanogaster with 2 samples.

Results

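Of 1708 summits of a dsf-GFP fusion protein on the nuclear chromosome arms of whole Drosophila larvae, 536 (31.4%, exact 95% interval 29.2% to 33.6%) lay between the start sites of a divergent promoter pair. A divergent pair is a minus-strand gene and a plus-strand gene whose promoters stand back to back. A summit was taken as a member when a protein-coding transcription start site (TSS) of a minus-strand gene lay at or left of it, a protein-coding TSS of a different, plus-strand gene lay at or right of it, and each was within 1000 bp. The rule used the positions of summits and start sites only. Signal values, the replicate lists and base words did not enter it, whereas gene lists differ in how many of their genes are in a divergent pair at all, and that share is given beside their counts. The others were 558 summits upstream of a single promoter (32.7%), 90 only downstream of a TSS (5.27%) and 524 with no protein-coding TSS within the limit (30.7%), called distal here.

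Chromatin immunoprecipitation followed by sequencing (ChIP-seq) had been run on 2 biological replicates of 1 group, numbered 3 and 4 in the labels. The animals were a transgenic line stably carrying dsf with GFP joined to its C-terminus, collected as wandering larvae of the third instar, males and females pooled, and the precipitation used an anti-GFP antibody on sonicated chromatin. Every sample carried the transgene, and the control experiment that the labels name as possible was not analysed here. There was thus no second group to compare. Whole animals were used: the tissue in which a region was occupied cannot be told, and the peak lists used here hold no expression values with which cell types could be checked. The joint list, in which the authors kept 1731 regions by irreproducible discovery rate (IDR), gave the members, and each replicate list held 29999 regions. Each region has the authors' own signal value, which is never negative and is ranked only within a list. Ratios and differences between lists are given as description, as the scales of the lists need not be alike. The files hold no read counts, so depth is unknown. Regions are not replicates, and the intervals cover counting error only.

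The gene dissatisfaction (dsf) codes for a nuclear receptor with no known ligand, related to tailless, and is known from Drosophila for its role in neurons that serve sexual behaviour. Back-to-back promoters are common in the compact Drosophila genome, often belong to broadly expressed housekeeping genes, and can share 1 stretch of accessible DNA between them. In Drosophila the DNA replication-related element (DRE), bound by the factor Dref, and sites of the insulator protein BEAF-32 are known from such promoters, while the receptors nearest to dsf bind a short site with the core AAGTCA.

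The DNA at 8 members is printed to show what lay under the strongest summits and what a member with a full DRE looked like. Each run is 101 bp centred on the summit, plus strand, 5′ to 3′, from the RefSeq release 6 genome (dm6), and lies between both start sites without touching an annotated exon, which 268 members allowed. Capitals mark TATCGA (the DRE core), AAGTCA or GTCACA on either strand. Members on the arm that holds mRpL41/CG8079 were left out of this choice and are not among the 268. The first 4 are the strongest of the other members that met these conditions. The last 4 are the strongest of these that also held the palindrome TATCGATA.
mRpS23/CenG1A, 2L:13835400-13835500: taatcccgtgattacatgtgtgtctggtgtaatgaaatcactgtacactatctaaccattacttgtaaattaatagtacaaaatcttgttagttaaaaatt
Art3/mRpS10, 3R:15229455-15229555: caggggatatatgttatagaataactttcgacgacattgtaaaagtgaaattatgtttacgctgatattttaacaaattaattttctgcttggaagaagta
Tcs5/CHMP2B, 3L:5139457-5139557: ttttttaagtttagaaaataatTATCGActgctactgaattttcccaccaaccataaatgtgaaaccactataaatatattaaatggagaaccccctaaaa
CG5611/Mtl, 3R:27636144-27636244: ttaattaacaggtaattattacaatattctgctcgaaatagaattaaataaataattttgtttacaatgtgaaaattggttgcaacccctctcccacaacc
RpL28/eIF1, 3L:3223004-3223104: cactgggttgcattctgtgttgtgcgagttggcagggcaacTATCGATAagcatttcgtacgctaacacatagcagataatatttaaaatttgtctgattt
Su(P)/CG4101, 3L:16612362-16612462: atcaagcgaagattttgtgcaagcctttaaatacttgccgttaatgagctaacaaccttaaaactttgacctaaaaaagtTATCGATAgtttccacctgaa
CG9636/CG18749, 3R:8243804-8243904: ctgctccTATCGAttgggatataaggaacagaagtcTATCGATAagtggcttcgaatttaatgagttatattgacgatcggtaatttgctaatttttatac
Klp67A/CG4452, 3L:9367172-9367272: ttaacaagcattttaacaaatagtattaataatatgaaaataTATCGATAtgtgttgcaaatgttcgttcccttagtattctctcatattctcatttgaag

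The 4 strongest windows were each 71.3% A and T, and 1 of them, at Tcs5/CHMP2B, held a capitalised word, with its centre 25 bp left of the summit. None of the 4 held AAGTCA or GTCACA. In the 4 windows chosen for TATCGATA the palindrome was centred 5 bp or less from the summit at RpL28/eIF1 and Klp67A/CG4452, and farther away at the other pair of windows. Klp67A encodes a kinesin motor of the mitotic spindle. CG9636/CG18749 held a separate copy of TATCGA beside the palindrome.

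The strongest member lay between Ugalt, which encodes a UDP-galactose transporter, and eIF2Bbeta, a subunit of the exchange factor for translation initiation factor eIF2, at X:2703737-2704059. Its joint signal value was 713, with 292 in replicate 3 and 419.8 in replicate 4. It ranked 2 of all joint nuclear summits, 2 of those of replicate 3 and 1 of those of replicate 4, so it was first in replicate 4 only. The summit was 35 bp from the start of Ugalt and 684 bp from that of eIF2Bbeta. It thus stood beside 1 promoter of a wide gap. The other 11 of the 12 strongest members had joint signal values from 374.4 to 501.

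Mitochondrial ribosomal protein genes were present at 3 of the 4 strongest members and at none of the rest of the 12 strongest. The cut at 4 was chosen after the values were seen. Over all members, 19 of the 1072 flanking genes were of this kind. At mRpS23/CenG1A (2L:13835332-13835597) the joint signal value was 501 and the replicate 4 value 282, while replicate 3 had no region within 100 bp. mRpS23 encodes a protein of the small mitochondrial ribosomal subunit, and CenG1A an Arf GTPase-activating protein. At Art3/mRpS10 (3R:15229368-15229691), where Art3 is an arginine methyltransferase, the joint value was 484, with 229 in replicate 3 and 249 in replicate 4. At mRpL41/CG8079 on arm 2R, with mRpL41 a protein of the large mitochondrial subunit, the joint value was 465, with 225 in replicate 3 and 239 in replicate 4. The last of these was again one-sided, 146 bp from mRpL41 and 616 bp from CG8079.

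Tcs5/CHMP2B (3L:5139372-5139640) had a joint value of 451, with 244 in replicate 3 and 212 in replicate 4, and its summit lay 112 bp from each start site. Tcs5 is a kinase of the complex that modifies tRNA, and CHMP2B belongs to the ESCRT-III membrane-cutting machinery. PNPase/Gprk2 (3R:31404517-31404794), a mitochondrial ribonuclease beside a G protein-coupled receptor kinase, had a joint value of 438, with 176 in replicate 3 and 256 in replicate 4. CG5611/Mtl had a joint value of 423, with 201 in replicate 3 and 218 in replicate 4. Chro/Ssl1, a chromatin protein of polytene interbands beside a subunit of the general factor TFIIH, had a joint value of 414.5, with 178 in replicate 3 and 233 in replicate 4. All 4 were thus listed in both replicates, and PNPase/Gprk2 was the one-sided member among them.

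CG8372/CG8360 had a joint value of 402, Mnat9/CG1792 of 377, Atat/Shc of 376 and CG11309/CG7632 of 374.4. Atat acetylates alpha-tubulin, Mnat9 is an N-acetyltransferase known to act on microtubules, and Shc is an adaptor of receptor tyrosine kinases. All 4 were matched in both replicates, with replicate 3 values from 138 to 194 and replicate 4 values from 184 to 244. Across the 12 strongest members the gap between the start sites was 215 bp to 762 bp with a median of 302 bp, and the nearer start site was 35 bp to 146 bp away. In the widest gaps of this group, at Ugalt/eIF2Bbeta, PNPase/Gprk2 and mRpL41/CG8079, the summit stood beside one of the start sites, and at mRpS23/CenG1A, with a gap of 492 bp, it was 114 bp from CenG1A and 378 bp from mRpS23.

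Member signal values in the joint list ran from 73.6 to 713 with a median of 109, against 104 for single-promoter summits and 104 for all nuclear summits. Members made up 34 of the 100 strongest nuclear summits and 42 of the next 100, beside 31.4% of all nuclear summits. Single-promoter summits made up 36 and 27 of these. Among the 100 strongest of each replicate there were 40 members and 32 single-promoter summits in replicate 3, but 33 and 37 in replicate 4. The very strongest summits thus did not favour members over single promoters in every list. The members' share in the joint list was 32.8% at ranks 401 to 800 and 28.1% beyond rank 1200. Among the strongest 427 summits, the upper 25%, 154 were members (36.1%). The median rank percentile, counted from the strongest, was 45.7 for members, 49.7 for single-promoter summits and 54.7 for distal summits. In the replicate lists, cut at their 1731 strongest regions, it was 41.1 in replicate 3 and 44.8 in replicate 4 for members, and 49.5 and 49.9 for single-promoter summits. The shift of members toward stronger ranks was thus present in both replicates, and was small beside the spread of ranks, whose central 50% ran from percentile 21.6 to 71.7.

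**Figure D1:**
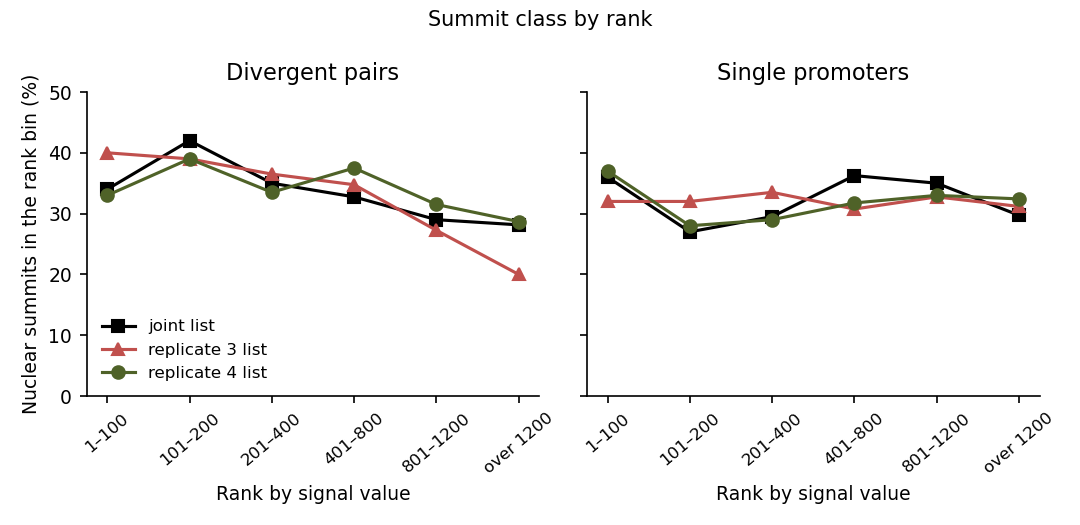
Share of nuclear summits (percent, vertical axis) that lay between divergent pairs (left) or upstream of a single promoter (right) in bins of rank by signal value (horizontal axis), for the joint list and the 1731 strongest regions of each replicate. The highest bin was ranks 101 to 200 in the joint list (42%) and replicate 4 (39%) and ranks 1 to 100 in replicate 3 (40%), with 37.5% at ranks 401 to 800 in replicate 4, and the divergent share was lowest beyond rank 1200, at 28.1% of joint summits, 20% for replicate 3 and 28.7% for replicate 4, while the single-promoter share had no such order.

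The share of summits between divergent pairs was 29.4% in replicate 3 and 32.8% in replicate 4 (31.1% ± 2.45, SD, n = 2), counting the 1731 strongest regions of each. The joint value of 31.4% lay between them. Single-promoter summits made up 31.8% and 32.0% (31.9% ± 0.137, SD, n = 2). In the weaker regions of the pooled list, which derives from both replicates' alignments, left outside the joint list, 1130 of 28267 summits (4.00%) lay between divergent pairs and 67.2% were distal. Single-promoter summits were 18.3% of these weaker regions, against 32.7% of the joint list. Both classes thus had a larger share among the regions the authors kept, and the divergent share differed more.

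Distances to the start sites were bounded by the rule and are given as a description. The gap between the start sites nearest to a member had a median of 333 bp (central 50% from 257 bp to 490 bp, extremes 40 bp and 1564 bp), and 348 members (64.9%) had a gap of 400 bp or less. The nearer start site was a median 99 bp away and the farther one 225 bp. A single-promoter summit had its nearest start site a median 193 bp away, but the nearer of a pair is the smaller of 2 distances, so these medians are not like for like. The minus-strand gene was nearer at 255 members and the plus-strand gene at 279, with 2 ties, so neither strand was favoured. The called region, 404 bp wide at 478 members, reached over both start sites at 185 members (34.5%), over exactly 1 at 270 and over neither at 81.

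**Figure D2:**
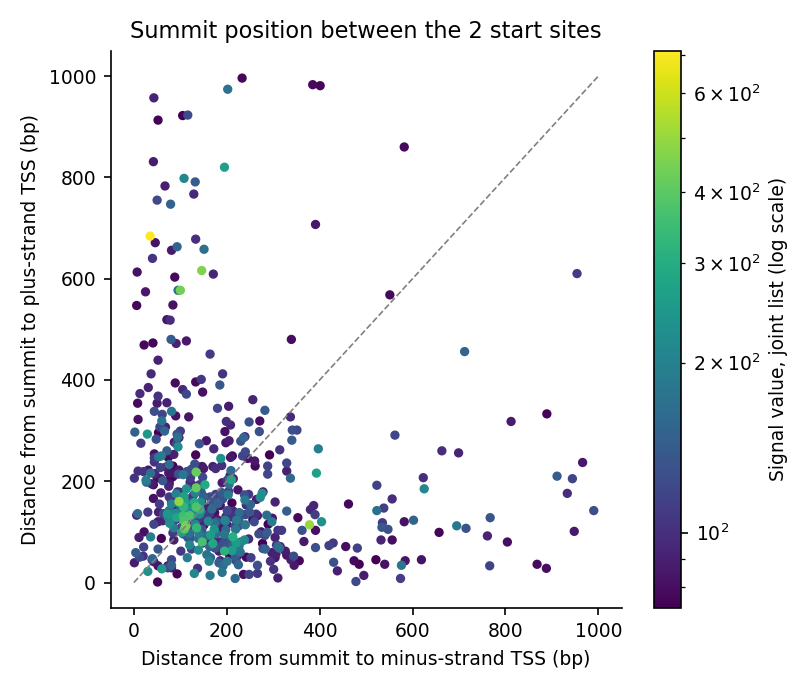
Distance from each of the 536 summits to the minus-strand start site (horizontal axis, bp) and to the plus-strand start site (vertical axis, bp), coloured by joint signal value on a log scale. Most points lie near the origin, with the nearer start site at a median of 99 bp, and the 12 strongest members have it 35 bp to 146 bp away.

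Within the gap, 332 members (61.9%) lay in its central 50%, which holds 50% of its bases, and the value was 64.1% in replicate 3 and 60.4% in replicate 4 (62.3% ± 2.63, SD, n = 2). The share was 72.8% at gaps of 200 bp to 300 bp (173 members), 66.7% at 300 bp to 400 bp (132 members) and 61.0% at 400 bp to 600 bp (105 members). It dropped to 25.8% at 600 bp to 1000 bp (62 members), where the nearer start site was a median 115 bp away. At these wide gaps most summits stood beside one of the start sites, as at Ugalt/eIF2Bbeta. Beyond 1000 bp the distance limit itself restricts where a summit can lie. The median joint signal value was 108 at gaps of up to 200 bp, 126 at 200 bp to 300 bp, 113 at 300 bp to 400 bp, 95.3 at 400 bp to 600 bp and 105 at 600 bp to 1000 bp.

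The narrowest gaps were 40 bp at mTerf5/Non3, 52 bp at CG32022/CG6511 and at trsn/Pef, and 62 bp at park/Targ3, where park is the ubiquitin ligase parkin and trsn the nucleic acid-binding protein translin. CG32022/CG6511 had a joint value of 230.5, with 129 in replicate 3 and 103 in replicate 4, and was well above the median member. mTerf5/Non3 had a joint value of 87.7, with 28.1 in replicate 3 and 62.5 in replicate 4, and was below it. The widest gaps were 1564 bp at CG9921/Dsp1, 1442 bp at Ubi-p63E/Sc2, 1382 bp at CG31807/grp and 1368 bp at mtd/Tim17b1, with joint signal values from 75.9 to 109. Dsp1 is an HMG-box protein, Ubi-p63E a polyubiquitin gene and grp the checkpoint kinase Chk1. Just inside the 1000 bp limit were CG10527/Treh, with its farther start site 996 bp away, Fsn/Dp at 990 bp and mtd/Tim17b1 at 983 bp. Just outside were Syx1A/CG10694 at 1001 bp with a joint signal value of 77.3, Pgk/Bacc at 1009 bp with 125 and Spred/BEAF-32 at 1009 bp with 103, and 92 summits in all would join at a limit of 2000 bp.

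The annotation holds 3499 divergent protein-coding pairs with a gap of up to 2000 bp, and 572 of them (16.3%, exact 95% interval 15.1% to 17.6%) had a joint summit between them. The share was 15.2% in replicate 3 and 17.0% in replicate 4 (16.1% ± 1.23, SD, n = 2). Both replicates had a summit at 361 pairs, and 351 of these also had one in the joint list. The 572 pairs involve 1072 genes. At 37 members more than 2 genes took part, and at 60 members the paired genes overlap in the annotation, so that some pairs share a summit and are not separate observations.

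How often a pair held a summit of the strong lists differed with the width of the gap. With 200 bp to 300 bp between start sites, 30.5% of 544 pairs held one (27.9% in replicate 3 and 32.2% in replicate 4), and with 300 bp to 400 bp 31.3% of 399 pairs did (28.8% and 32.3%). Narrower gaps of up to 200 bp had 15.4% of 780 pairs (14.2% and 18.2%). Wider gaps had 19.4% of 479 pairs at 400 bp to 600 bp (18.2% and 18.0%) and 11.2% of 465 pairs at 600 bp to 1000 bp (11.8% and 9.89%). In each replicate both bins between 200 bp and 400 bp were above every other bin by more than the replicates differed. Beyond 1000 bp the share was 1.92%, in a bin that the distance limit restricts. The peak between 200 bp and 400 bp was absent when every region of the pooled list counted, weak ones included. That share was 32.3% at gaps of up to 200 bp, 49.6% at 200 bp to 300 bp, 56.6% at 300 bp to 400 bp, 59.1% at 400 bp to 600 bp and 56.3% at 600 bp to 1000 bp.

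**Figure D3:**
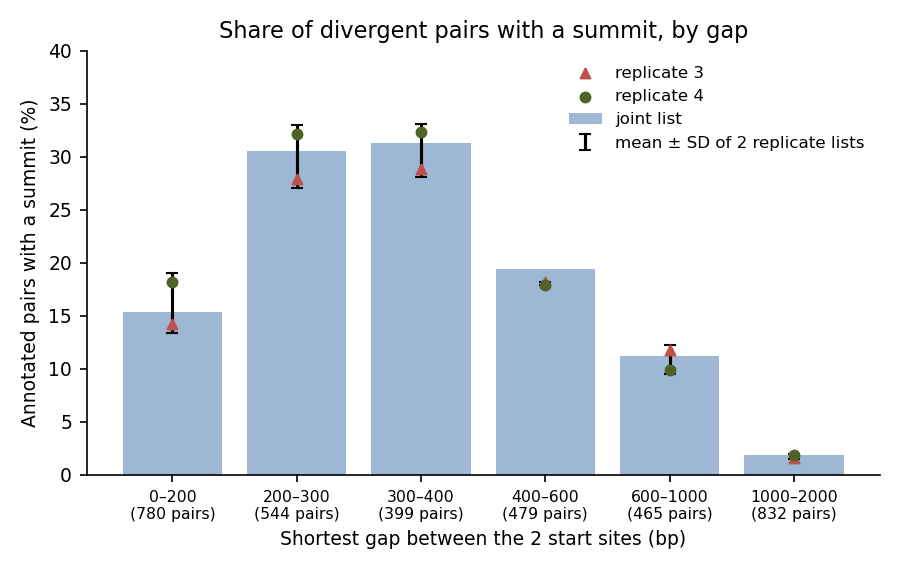
Share of annotated divergent pairs with a summit between them (percent, vertical axis) by the shortest gap between their start sites (bp, horizontal axis), with bars for the joint list, triangles and circles for replicates 3 and 4, and lines for the mean ± SD of the 2 replicate lists. Both bins from 200 bp to 400 bp stand at 30.5% and 31.3%, and the neighbouring bins at 15.4% and 19.4%.

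Seen by gene, 1208 of 6198 protein-coding genes in a divergent pair had a summit within 1000 bp upstream of a start site, or 19.5%, against 11.3% of all 13945 genes. Of the 7747 genes in no divergent pair, 372 (4.80%) had one. The replicates gave 18.0% and 20.1% for genes in a pair (19.1% ± 1.47, SD, n = 2) and 4.87% and 4.71% for the others (4.79% ± 0.110, SD, n = 2). The difference was far larger than the spread between replicates, though a summit inside a pair counts for both of its genes.

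By arm, members were 51 of 230 nuclear summits on X (22.2%), 101 of 339 on 2L (29.8%), 98 of 313 on 2R (31.3%), 121 of 367 on 3L (33.0%), 165 of 453 on 3R (36.4%) and 0 of 6 on 4. The arms also differed in the share of their annotated pairs that held a summit. On X it was 52 of 508 pairs, 10.2% (9.45% in replicate 3 and 10.8% in replicate 4), and on 3R 183 of 874 pairs, 20.9% (20.02% and 21.7%). X was lowest and 3R highest in both replicates among the 5 large arms, with no overlap between the replicate values of X and those of 3R. X and 3R were chosen for this after the values were seen, and 3L stood close to 3R at 19.5% (18.2% and 19.4%). On arm 4, 0 of 16 pairs held one, which allows a share of up to 18.75%.

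Members were compared with each replicate's 1731 strongest regions, a match being a summit within 100 bp. In both replicates 298 of 536 members were matched (55.6%, exact 95% interval 51.3% to 59.9%), against 56.6% of all nuclear summits, 56.6% of single-promoter summits and 57.8% of distal summits. The share near the background is no result about members, and it is partly built in because the joint list derives from both replicates. Replicate 3 matched 395 members (73.7%) and replicate 4 matched 408 (76.1%). With all regions of the replicate lists counted, 430 members were matched in both, where the summits of the replicates stood a median 30.5 bp apart. Across these 430 regions, which share their libraries, the signal values correlated with a Spearman rank coefficient of 0.643 and a Pearson coefficient of 0.676 on log10 values, beside 0.505 and 0.611 over 483 single-promoter summits. The value was higher in replicate 4 at 335 members and in replicate 3 at 95, with a median ratio of replicate 3 to replicate 4 of 0.760. These values describe the scales of the lists, which need not be alike, and not a difference in binding.

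**Figure D4:**
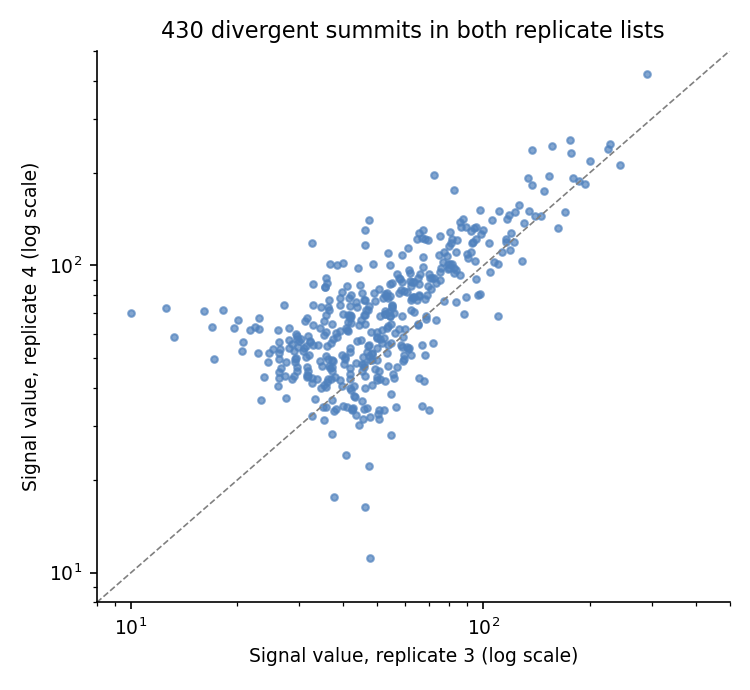
Signal value in replicate 3 (horizontal axis, log scale) and replicate 4 (vertical axis, log scale) for the 430 members with a matching region in both replicate lists, with the line of equal values dashed. 335 points lie above the line and 95 below it.

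Replicate 3 lacked regions at a set of members that were strong elsewhere. Of the 536 members, 65 (12.1%) had no replicate 3 region within 1000 bp, against 30 of 558 single-promoter summits (5.38%) and 7 of 524 distal summits (1.34%), while 1 member (0.187%) had no replicate 4 region within that distance. Of these 65, 62 were matched in replicate 4, 53 of them among its strongest regions. mRpS23/CenG1A ranked 12 in replicate 4 with a value of 282 and exceeded that by 219 in the joint list. At Cp190/CG4338, where Cp190 is a cofactor shared by insulator proteins, the value was 213 in the joint list and 105 in replicate 4. At members matched in both replicates the ratio of the joint value to both replicate values added together had a median of 1.01 and ran from 0.877 to 1.55. Across the 62 the joint value exceeded that of replicate 4 by 13.8 to 219 (median 40.9), beside a median of 51.4 at members matched in both, and the lowest value listed on the nuclear arms of replicate 3 was 9.25. These differences set values of separate lists side by side, whose scales need not be alike, and give no replicate 3 value for any of these regions. Why replicate 3 lists no region there was not tested, and any value of replicate 3 that counts members is a count of listed regions.

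Some gene pairs held more than 1 summit. At 22 pairs 2 member summits had that pair as their nearest, in part at different start sites of the same genes. Hrd3/PTPMT1 (3R) had joint values of 247 and 219, with replicate 3 at 98.0 and 86.2 and replicate 4 at 151 and 133. Hrd3 acts in degradation from the endoplasmic reticulum, and PTPMT1 is a mitochondrial phosphatase. Hat1/Rpn5, a histone acetyltransferase beside a subunit of the proteasome lid, had 178 and 160.2, and RpL28/eIF1 had 172 and 171. CG3281/aurA, with aurA the mitotic kinase Aurora A, had 180.1 and 89.3. The rest of the strongest such pairs were Alh/CG10098 with 222 and 90.3, Wdr37/koko with 203 and 106, and Xe7/Atg17, which holds the autophagy gene Atg17, with 179.9 and 123. Replicate 4 had a region within 100 bp of each of these summits. Replicate 3 had none at the stronger Hat1/Rpn5 summit, at both RpL28/eIF1 summits, and at the weaker summits of CG3281/aurA and Wdr37/koko. Its value at the weaker Alh/CG10098 summit was 16.1, and Xe7/Atg17 was matched in it at both summits.

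The distance between paired summits had a median of 209.5 bp and ran from 199 bp to 2378 bp. At 13 of the 22 pairs it was within 10 bp of 202 bp, which is 50% of the usual region width. Over all nuclear summits, 43 of 53 neighbours up to 400 bp apart also fell in that range, and the closest neighbours were 199 bp apart. The spacing was therefore shared with the whole list, and the part of region calling in it was not tested.

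Lists of housekeeping genes differed in how many genes flanked a member. Of the 93 genes with symbols of cytoplasmic ribosomal proteins, 31 (33.3%) flanked a member, against 7.69% of all protein-coding genes. Members flanked 51.7% of the 60 that are in a divergent pair, against 17.3% of all genes in one. Replicate 3 gave 21 genes and replicate 4 gave 29. RpL34b/CG8132 (3R:9401130-9401533) was the strongest, at a joint value of 208, with 89.7 in replicate 3 and 109 in replicate 4. RpL32/CG7943 had a joint value of 200.2, with 80.8 in replicate 3 and 118 in replicate 4, and Ripalpha/RpL7 had 195, 67.5 and 130.4. The 3 genes encode proteins of the large ribosomal subunit, and all 3 members were listed in both replicates.

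Of the 73 mitochondrial ribosomal protein genes, 19 (26.0%) flanked a member, which is 32.2% of the 59 in a divergent pair (17 in replicate 3 and 19 in replicate 4). RNA polymerase subunits had 8 of 30 genes (26.7%), which is 40% of the 20 in a pair, among them Polr2B, the second largest subunit of RNA polymerase II, whose member 140up/Polr2B had a joint value of 183, with 82.4 in replicate 3 and 98.3 in replicate 4. Polr2J/CG15141 and Polr1D/brat followed at 126 and 123. tRNA synthetases, which load tRNAs with amino acids, had 7 of 35 genes (20%), which is 26.9% of the 26 in a pair, led by SerRS/CG17260 at a joint value of 209.9, with 107 in replicate 3 and 102 in replicate 4, with GluProRS/AP-1sigma at 156 and Hem/IleRS at 145.5. Mediator subunits, which link transcription factors to the polymerase, had 4 of 25 (16%), which is 21.1% of the 19 in a pair and close to the 17.3% of all genes in one, led by MED30/Rev1 at a joint value of 259, with 110.4 in replicate 3 and 151 in replicate 4.

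Other housekeeping lists were near the background of 7.69% of all genes and 17.3% of genes in a pair. Oxidative phosphorylation had 10 of 91 genes (11.0%, or 19.2% of those in a pair), translation factors 5 of 51 (9.80%, or 15.2%) and proteasome subunits 4 of 48 (8.33%, or 13.3%). Their strongest members were CG42260/blw, with blw the alpha subunit of ATP synthase, at 208, Ugalt/eIF2Bbeta, and l(2)37Bb/Rpn3 at 182. The last had 105 in replicate 4 and no region in replicate 3. The lists of cuticle proteins and odorant receptors, genes active in restricted tissues, had 0 of 70 and 0 of 59 genes, which allows shares of up to 4.29% and 5.08%. Only 16 and 10 of those genes are in a divergent pair at all. These are too few for the zeros to show a share below the 17.3% of all genes in a pair.

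Members also stood at genes of promoter and insulator factors. Of 17 listed genes, 5 (29.4%, against 7.69% of all genes) flanked a member in the joint list, namely Chro, Cp190, Dref, M1BP and su(Hw). A divergent pair holds 14 of the 17 (82.4%), against 44.4% of all genes, and the 5 are 35.7% of these 14, against 17.3% of all genes in a pair. Each replicate list also gave 5 genes. Replicate 3 had no region at the Cp190 and Dref members, so the equal counts do not mean the same genes. Dref/RpL13 (2L:9967066-9967469), with start sites 39 bp and 45 bp from the summit, had 109 in the joint list and 73.9 in replicate 4, and no region in replicate 3. BEAF-32 was just outside the distance limit, as given above. At 3 pairs both genes were on the lists, and these were Dref/RpL13, RpL28/eIF1 and su(Hw)/Polr2I. Within 5 kb of dsf itself there was 1 member, between Sfp26Ad, a seminal fluid protein gene, and Gpdh1, which encodes glycerol-3-phosphate dehydrogenase (2L:5943499-5943902). Its joint value was 193, with 90.2 in replicate 3 and 106 in replicate 4.

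Base words were searched on both strands in the 101 bp around each summit. Flanks, centred 300 bp to either side, together covered the same length. For members the flanks often lie past the start sites, in transcribed DNA. TATCGA was present at 85 members (15.9%, exact 95% interval 12.9% to 19.2%), against 10.1% of all nuclear summits, 11.6% of single-promoter summits and 4.01% of distal summits. The flanks of members held it at 35 (6.53%). The share was 15.3% at the members of replicate 3 and 18.2% at those of replicate 4, and the ratio of summit to flank share was 2.43 at joint summits, 2.33 with replicate 4 left out and 3.92 with replicate 3 left out. With flanks centred 500 bp away it was 7.08. The full palindrome TATCGATA, which contains TATCGA on both strands, was at 38 members (7.09%), against 3.40% of all nuclear summits. CGATA at 2 or more places, the form known for BEAF-32, was at 67 members (12.5%), against 6.91% of all nuclear summits. A single TATCGATA holds 2 such places, on opposite strands, so the 38 members with it are among these 67 by construction.

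Members with the DRE core were not stronger than the rest. Members with TATCGA had a median joint signal value of 100.2 and those without it 111, and the values for TATCGATA were 93.7 and 111. Nor did pairs with a summit hold it more often than pairs without one. Around the midpoints of pairs with a gap of up to 1000 bp, TATCGA was within 50 bp at 12.4% of the 556 with a summit and at 14.9% of the 2111 without. At gaps of 200 bp to 400 bp, a range chosen after the values were seen, the shares were 7.90% of 291 pairs and 7.06% of 652. In these windows the intervals of pairs with and without a summit overlapped, so the word did not set apart the pairs with a listed summit at this number of pairs.

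**Figure D5:**
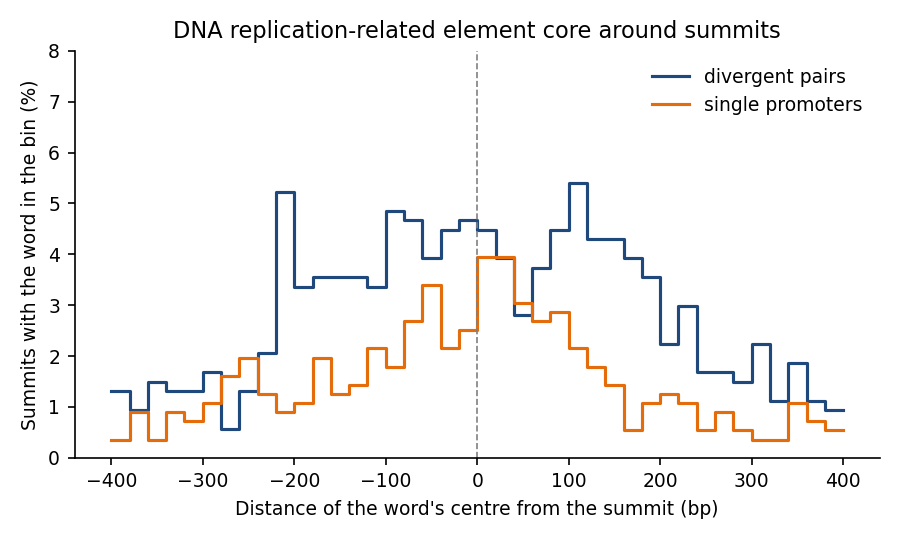
Share of summits with the word TATCGA on either strand (percent, vertical axis) in bins of 20 bp of distance from the summit (horizontal axis, bp), for members and for single-promoter summits. Members averaged 4.20% per bin within 100 bp, 3.88% at 100 bp to 200 bp and 1.73% at 200 bp to 400 bp, a broad plateau, while single-promoter summits averaged 2.90%, 1.49% and 0.869%.

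Words of nuclear receptors were rare. AAGTCA was at 30 members (5.60%), against 5.27% of all nuclear summits and 4.10% of the members' flanks, and AGGTCA was at 9 members (1.68%), against 1.76% of all nuclear summits. The share at all nuclear summits lay inside the members' interval of 3.81% to 7.89%. GTCACA, the core of the core promoter word known as Motif 1, was at 31 members (5.78%), against 3.98% of all nuclear summits, and the longer GGTCACACT, which contains it, at 5. Around midpoints GGTCACACT was at 3 of the 556 pairs with a summit (0.540%) and at 55 of the 2111 without (2.61%). At gaps of 200 bp to 400 bp it was at 0 of 291 and 1 of 652, too few to compare the pairs where gap width was alike.

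TATAAA was at 142 members (26.5%), against 23.0% of all nuclear summits. The latter share lay inside the members' interval of 22.8% to 30.4%. Around midpoints TATAAA was at 28.2% of the 556 pairs with a summit (interval 24.5% to 32.2%). The share was 21.3% of the 2111 pairs without one (19.5% to 23.1%), so these intervals did not overlap. At gaps of 200 bp to 400 bp the shares were 35.4% of 291 pairs and 28.1% of 652, with overlapping intervals. The members' windows were 68.3% A and T at the median and their flanks 55.9%, with 67.3% at single-promoter summits and 68.3% over all nuclear summits, and the part of base composition in the counts of TATAAA was not tested. Pairs with a summit had A- and T-rich midpoints, at a median of 71.3% against 67.3% in pairs without one, and 74.3% against 72.3% at gaps of 200 bp to 400 bp. GAGAGA, the word of the GAGA factor, was at 7 members (1.31%), against 3.34% of all nuclear summits and 4.48% of single-promoter summits. With replicate 3 left out it was 2.14%, and with replicate 4 left out 2.19%. The remaining words were near their share over all nuclear summits. CAGCTG was at 3.36% of members against 3.40%, CACGTG at 0.746% against 1.11%, CAGGTA at 1.68% against 1.93%, and GATAAG at 6.16% against 5.44%. A match is a run of letters and no evidence of a bound site, and a word missing from these windows says nothing about the factor.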

How the data were processed

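The 2 ChIP-seq replicates gave 1 peak list each, and the series a pooled list and an IDR-thresholded joint list. The signal column deposited by the authors gives 1 non-negative value per region. Per the deposited file descriptions, the lists are on dm6, the joint list derives from both replicate lists and the pooled list, and each other list from its alignments and 1 further file. Neither aligner nor caller, control handling or version is stated: these were not given in the sources used here. Lists on the older build dm3 were not used.

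Summits were read 1-based as the region start plus the deposited offset. Start sites came from protein-coding transcripts of 13945 protein-coding genes in Ensembl release 115 (dm6 coordinates), and sequence from the RefSeq release 6 genome. Replicate values used the 1731 strongest regions of each list unless all regions are named, and regions on no nuclear arm were left out. Scripts ran in Python 3.11.15 with NumPy 2.4.6 and SciPy 1.17.1 (exact Clopper-Pearson 95% intervals), were tested on simulated data, and made counts, shares and medians. With 1 group no significance test was run. A zero allows up to 3 counts of the total. The members and lists were chosen with earlier results of these data known.

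Named pairs were the 12 strongest members, the 4 with the shortest and the 4 with the longest gap, the 3 just inside and the 3 just outside the limit, up to 6 pairs with several summits, up to 3 strongest members per gene list, and members within 5 kb of dsf. Other pairs are named where a result turns on them and were chosen after their values were seen. The 11 gene lists were matched by symbol, so that 5 cytoplasmic ribosomal genes named "-like" and paralogs of restricted expression are included. The 13 words were counted in windows of 101 bp. Alternatives were other distance limits, gene 5′ ends only, the strongest 25%, other match distances, windows and flanks, and each replicate alone.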

Additional observations from a re-analysis of the deposited data

How the results depend on the processing

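With 500 bp to each start site the divergent share of summits was 26.8%, the share of pairs with a summit 18.1% and the central share 69.7%. With the gene's 5′ end as its only start site these were 23.1% of summits and 13.2% of pairs, and 52.8% of members were matched in both replicates; fewer start sites enter by construction. In the strongest 25% of nuclear regions the divergent share was 36.1%, the share of pairs 5.23%, the central share 67.5%, the matched share 89.6%, TATCGA 12.3%, AAGTCA 7.14%, and 9 cytoplasmic and 7 mitochondrial ribosomal protein genes flanked a member, a smaller list by construction. The pooled list outside the joint list gave 4.00% divergent summits. Matching within 50 bp gave 42.7% and within 200 bp 60.4%. Windows of 25 bp and 100 bp to each side gave TATCGA at 9.51% and 30.2% and AAGTCA at 1.87% and 9.89%, as the searched length sets. Flanks centred 500 bp away gave a summit to flank ratio of 7.08 for TATCGA and of 2 for AAGTCA (1.36 at 300 bp), and the cause was not tested. Leaving out each replicate, the median rank percentile was 41.1 to 44.8, TATCGA was at 15.3% to 18.2% and its summit to flank ratio was 2.33 to 3.92. Of the recomputed main values, 28 moved by less than the replicate spread or counting interval (for gene counts, by up to 1.5 times) and 26 by more. Of the values for other words and lists, 50 stayed within these bounds and 74 did not. The summit to flank ratio of CAGGTA (1.8) turned to 0.692 with flanks at 500 bp and to 0.667 without replicate 3, and that of GGTCACACT (2.5) to 0.833 without replicate 3. No paired analysis was possible because there is 1 group. Unknown depth limits every count of members: a pair without a listed summit is not shown to lack binding.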
